A study of Homo sapiens with 6 samples.

Results

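The genes described here are the human zinc finger genes whose symbol starts with ZNF followed by a digit. A probe set, the unit that an Affymetrix array measures, was taken where the platform annotation gave it a single such symbol, which held for 304 probe sets of 235 genes among 11963 named genes in all. Where a gene had several probe sets, the brightest by mean log2 value over all 6 arrays stood for it, and the other 69 probe sets, of 56 genes, served as a check. RefSeq lists 226 of the 235 as protein-coding and the other 9 as pseudogenes or antisense RNAs.

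Expression was compared between HK2 cells given OCRL siRNA and HK2 cells given a non-targeting siRNA, with 3 arrays from independent experiments in each group. HK2 is an immortalised human line from kidney proximal tubule, and OCRL encodes the inositol phosphatase that is mutated in Lowe syndrome. Both groups were transfected with Dharmafect 4 at 30% confluence, grown in DMEM F12 with insulin, transferrin and selenium, and harvested after 96 h. All arrays come from this line, the siRNA sequences are not given in the sources used here, and effects of an siRNA on targets other than OCRL were not tested.

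ZNF proteins mostly carry arrays of C2H2 zinc fingers, each of which holds a zinc ion and contacts DNA, and the family grew by tandem duplication, above all on chromosome 19. Many members also carry a KRAB box, which recruits the co-repressor TRIM28 and through it histone methylation, and these proteins are best known for silencing transposable elements. A smaller class carries a SCAN box, through which the proteins pair, and the remaining members include activators and proteins with other roles.

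OCRL was measured first as a check of the labels. Its brighter probe set was at 7.52, 7.49 and 7.40 in OCRL siRNA cells, against 9.49, 9.48 and 9.50 in control siRNA cells (log2 values). The difference, OCRL siRNA minus control siRNA as throughout, was -2.02 (SE 0.048, adjusted p = 1.24e-05, limma), and its exact permutation p of 0.10 is the smallest that 3 arrays against 3 allow. The dimmer OCRL probe set differed by -1.01 (SE 0.102, adjusted p = 7.64e-04, limma). The signal left was thus 24.6% of control by the brighter probe set and 49.7% by the dimmer one. Array medians lay between 7.269 and 7.298 in OCRL siRNA cells and between 7.231 and 7.239 in control siRNA cells. Of 14 measured kidney epithelium markers, KRT8, KRT18, CDH6 and PAX8 were bright on every array, whereas the proximal tubule genes LRP2, CUBN, SLC34A1, AQP1 and ANPEP were below the lower quartile of all genes. MME, DPP4 and ANPEP rose and CDH6, KRT8, KRT19 and PAX8 fell. Of 13 markers of endothelium, leukocytes, stroma, podocytes and other nephron segments, limma called 0, with 1 at an unadjusted p under 0.05 and 8 below the lower quartile, and their summed log2 value was 67.6 to 68.2 in OCRL siRNA cells and 67.6 to 68.9 in control siRNA cells.

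More ZNF genes rose than fell after OCRL siRNA. A gene was called where limma's p, adjusted by the Benjamini-Hochberg method over all tested probe sets, was below 0.05. Of the 235 ZNF genes, 60 were called higher, beside 15.5% of all genes, and 10 were called lower, beside 10.5% of all genes. In percent of the ZNF genes these counts are 25.5% and 4.26%. Among the 11728 other genes the shares were 15.3% higher and 10.6% lower. The median log2 difference was 0.09 over the ZNF genes and 5.03e-04 over all genes. Of the 165 ZNF genes that were not called, 113 also had a difference above 0, beside 4138 of the 8858 uncalled genes in all. All 70 called genes had groups that did not overlap, which reads the same values as the call and adds no separate evidence. With each array left out in turn, 39 of the 60 rises and 4 of the 10 falls were still called. The matching shares over all called genes were not counted.

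Changes of single ZNF genes were small. The median called rise was 0.36 and the median called fall -0.22 on the log2 scale, and no ZNF gene rose 2-fold. With a minimum of 1.5-fold added to the call, 10 ZNF genes were higher, beside 2.51% of all genes, and 1 was lower, beside 1.69% of all genes. The smallest rise that was called was 0.17 (ZNF3) and the smallest fall -0.14 (ZNF281), and both calls were lost whichever array was left out. Another 33 ZNF genes had an unadjusted p under 0.05 without being called, 23 of them higher and 10 lower. With the called genes included, 83 of 235 ZNF genes were higher and 20 lower at that level. Beside them stood 2602 higher and 2001 lower of all 11963 genes. The median SE of a difference was 0.067 for ZNF genes and 0.060 for all genes. In RNA from a whole culture, fewer cells that express a gene and less of its RNA per cell cannot be told apart.

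The shift of the list was seen on each array. Relative to each gene's control mean, the median over the 235 ZNF genes was 0.090, 0.105 and 0.089 on the OCRL siRNA arrays, against 0.051, -0.026 and -0.018 on the control siRNA arrays. The same median over all genes lay between -0.010 and 0.011 on all 6 arrays. On the deposited values the groups did not overlap, and control replicate 1 was the control array nearest to the OCRL siRNA arrays. Without that array 70 ZNF genes were called higher and 7 lower, beside 14.6% and 10.4% of all genes. Without control replicate 2 or 3, or without any of the 3 OCRL siRNA arrays, 43 to 48 were called higher and 5 or 6 lower. Beside them stood 11.1% to 11.9% and 7.08% to 8.24% of all genes. When every array was centred on its median, the split over all genes changed to 12.01% higher and 14.8% lower. The ZNF genes were still 50 higher and 15 lower, with a median difference of 0.05 beside -0.05 for all genes. Centring lowers the OCRL siRNA arrays, whose medians were 7.269 to 7.298, against 7.231 to 7.239 for control siRNA. The ZNF median of control replicate 1 then lies within the range of the OCRL siRNA arrays, so the separation depends on array level.

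**Figure D1:**
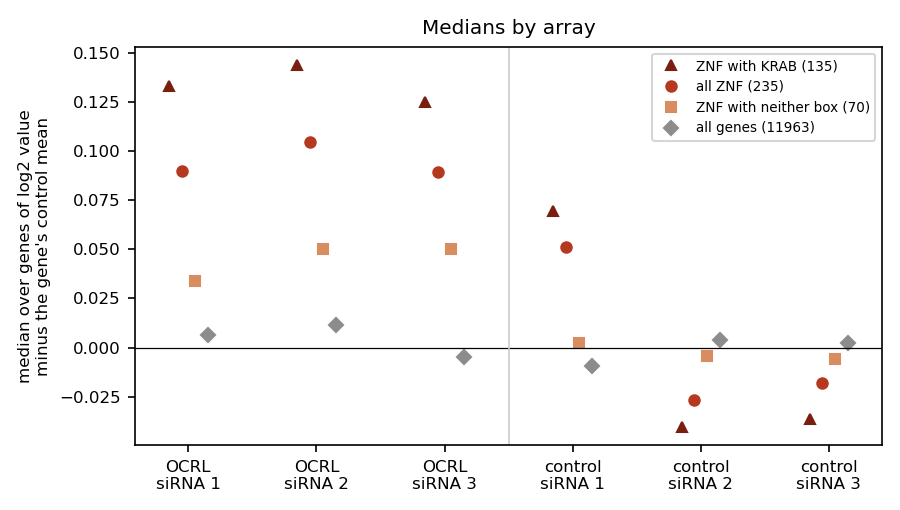
Median over genes of the log2 value minus the gene's mean in control siRNA cells (vertical axis), for each of the 6 arrays (horizontal axis), in ZNF genes with a KRAB box, all ZNF genes, ZNF genes with neither KRAB nor SCAN, and all genes. On these deposited values all 3 OCRL siRNA arrays lie above all 3 control siRNA arrays in the 3 ZNF groups, while the medians of all genes stay near 0. With arrays centred on their medians, the groups would overlap in all ZNF genes and in those with neither box, but not in those with KRAB.

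Most of the genes that rose carry a KRAB box. Of 135 ZNF genes with a KRAB box, alone or with SCAN, 42 rose and 4 fell, which is 31.1% and 2.96%, with a median difference of 0.12. Of the other 100 ZNF genes 18 rose and 6 fell, with a median of 0.06. KRAB genes without SCAN made up 127 of these, with 39 higher and 4 lower. The 8 genes with both boxes had 3 higher (ZNF215, ZNF274 and ZNF394) and 0 lower by limma, and also 0 lower at an unadjusted p under 0.05. The call of ZNF394 was lost without 5 of the 6 arrays, with a replicate block and with median centring. The 5 genes with SCAN alone had 2 higher, ZNF165 and ZNF232, and 0 lower, again with 0 lower at an unadjusted p under 0.05. Of the 70 genes with neither box, 9 rose and 5 fell, with a median difference of 0.05. These are 12.9% and 7.14%, so that the share that rose was below the 15.5% of all genes and the share that fell below the 10.5%. A further 16 genes were given no class, and of these 5 rose and 1 fell. Genes with SCAN alone or with neither box were together 11 higher and 5 lower, and 10 higher and 8 lower with arrays centred on their medians. Classes come from general knowledge of the proteins, and the difference between classes was not tested.

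The share of genes called differed with brightness, so ZNF genes were also set beside all genes of the same band. The quartiles of the mean log2 value over all genes were 5.73, 7.94 and 10.04, and 50, 86, 86 and 13 ZNF genes fell into the 4 bands between them, called the lowest, the second, the third and the top. In the third band 37 of 86 ZNF genes rose and 6 fell, or 43.0% and 6.98%, beside 25.6% and 14.8% of all genes in that band. Of the 54 with a KRAB box in that band, 27 rose and 2 fell. In the second band 15 of 86 rose and 2 fell, or 17.4% and 2.33%, beside 12.3% and 8.09%. Without control replicate 1 the rises in that band numbered 23.

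The dimmest and brightest bands held fewer called genes. In the lowest band 6 of 50 ZNF genes rose, or 12%, beside 2.34% of all genes there, and limma called 0 lower, with 0 at an unadjusted p under 0.05, beside 3.61% of all genes. Without OCRL replicate 2 only 3 rose in this band. In the top band 2 of 13 rose (ZNF274 and ZNF330) and 2 fell (ZNF22 and ZNF281), beside 21.7% and 15.3% of all genes, and with median centring 1 rose and 4 fell. In the 3 lower bands the share of ZNF genes that rose was thus above that of all genes and the share that fell below it, and in the top band the share that rose was below. Bands order probe sets by brightness, which is not the amount of transcript.

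**Figure D2:**
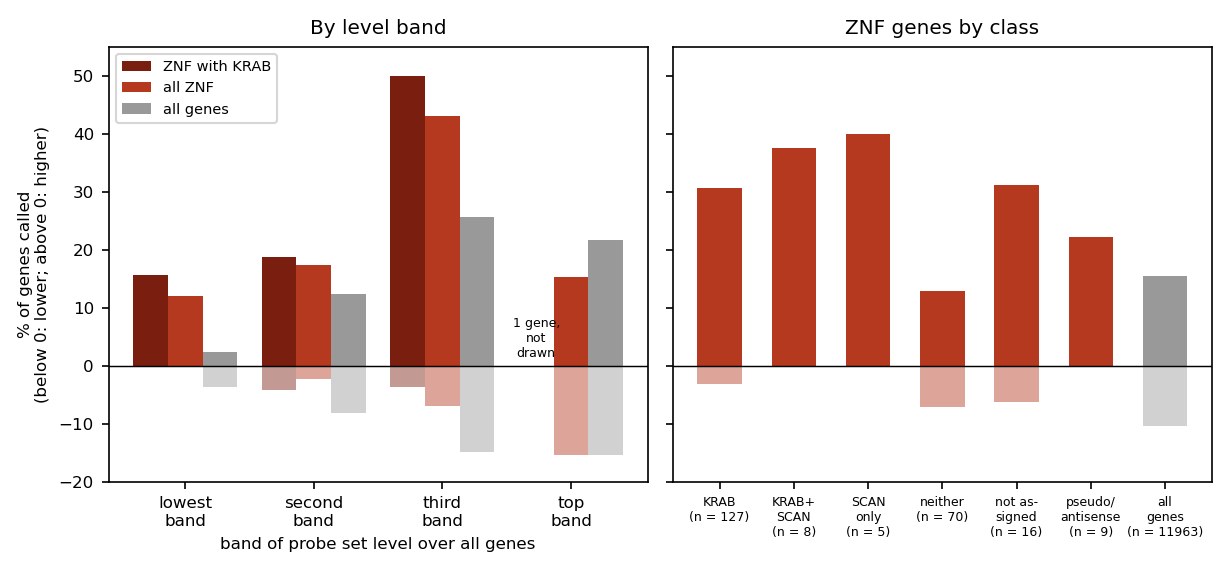
Share of genes called higher (above 0) and lower (below 0) in percent, by band of probe set level for ZNF genes with a KRAB box, all ZNF genes and all genes (left), and by class for ZNF genes beside all genes (right, number of genes under each bar). The tallest ZNF bars stand in the third band, where 43.0% of ZNF genes and 25.6% of all genes rose.

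The largest rise was that of ZNF443, a KRAB zinc finger gene of chromosome 19. It was at 9.21, 9.28 and 9.32 in OCRL siRNA cells, against 8.58, 8.31 and 8.37 in control siRNA cells. This was a 1.80-fold rise (log2 difference 0.85, SE 0.078, adjusted p = 5.00e-04, limma), and every OCRL siRNA array was above every control siRNA array. Its 2 dimmer probe sets, at means of 3.89 and 5.32 over all arrays, differed by -0.02 and 0.01 and were not called, so the rise rests on a single probe set.

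ZNF93, a KRAB protein known to bind and silence LINE-1 retrotransposons, was at 9.70, 9.68 and 9.68 in OCRL siRNA cells, against 8.90, 8.96 and 8.91 in control siRNA cells. It rose 1.70-fold (log2 difference 0.76, SE 0.042, adjusted p = 7.64e-05, limma), with little spread within either group, and its second probe set rose by 0.35 (adjusted p = 0.0214). ZNF257, from the same part of chromosome 19, was at 7.92, 7.86 and 7.95 in OCRL siRNA cells, against 7.45, 6.99 and 7.12 in control siRNA cells. It rose 1.65-fold (SE of the log2 difference 0.113, adjusted p = 0.00445), and control replicate 1 was the nearest of its control arrays.

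Rises of this size were also found outside the KRAB class. ZNF395, a factor without a KRAB or SCAN box that is known to be induced in hypoxia, was at 9.88, 9.87 and 9.93 in OCRL siRNA cells, against 9.18, 9.19 and 9.15 in control siRNA cells. Its 1.65-fold rise (log2 difference 0.72, SE 0.041, adjusted p = 8.39e-05, limma) had groups that stood far apart for their spread. ZNF165, a SCAN gene known as a cancer-testis antigen, was at 6.67, 6.76 and 6.74 in OCRL siRNA cells, against 6.21, 5.95 and 5.96 in control siRNA cells. It rose 1.61-fold (adjusted p = 0.00123), again with control replicate 1 the closest control array.

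ZNF473, a KRAB gene whose product is a component of the machinery that processes replication-dependent histone mRNA, was at 8.35, 8.42 and 8.48 in OCRL siRNA cells, against 7.81, 7.82 and 7.71 in control siRNA cells. It rose 1.56-fold (adjusted p = 4.15e-04, limma), and its second probe set rose by 0.35 on the log2 scale (adjusted p = 0.00343). ZNF467, known from mouse as a regulator of the choice between bone and fat cells, was at 7.37, 7.47 and 7.44 in OCRL siRNA cells, against 6.69, 6.87 and 6.86 in control siRNA cells. It rose 1.54-fold (adjusted p = 7.02e-04), while its dimmer probe set differed by 0.13 and was not called (adjusted p = 0.121).

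The other genes past 1.5-fold were ZNF415 (1.59-fold), ZNF226 (1.51-fold) and ZNF273 (1.504-fold). ZNF804A, known from a schizophrenia risk locus, was dim, at 5.499, 5.39 and 5.81 in OCRL siRNA cells and 4.94, 5.08 and 4.94 in control siRNA cells. ZNF667, a KRAB gene, was at 8.34, 8.34 and 8.49 in OCRL siRNA cells and 7.97, 7.71 and 7.84 in control siRNA cells. Both were called higher (adjusted p = 0.00963 and 0.00305, limma). All 12 of these largest rises passed the test with each array left out in turn.

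Of the genes with both boxes, ZNF215, from the imprinted region linked to Beckwith-Wiedemann syndrome, rose by 0.51 (SE 0.072, adjusted p = 0.00295, limma). The SCAN gene ZNF232 rose by 0.49 (SE 0.041), with values of 9.07, 9.09 and 9.07 in OCRL siRNA cells, against 8.62, 8.56 and 8.57 in control siRNA cells. ZNF318, which in mouse B cells is needed for the splicing of IgD mRNA, rose by 0.42. The pseudogenes ZNF37BP and ZNF702P rose by 0.41 and 0.38, of which the call of ZNF37BP was lost without 2 of the 6 arrays, and the other 7 pseudogenes and antisense RNAs were not called.

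Only ZNF264 fell by more than 1.5-fold. This KRAB gene was at 7.06, 7.17 and 6.96 in OCRL siRNA cells, against 8.05, 7.77 and 7.65 in control siRNA cells, which is 1.69-fold lower, with a log2 difference of -0.76 (SE 0.109, adjusted p = 0.0032 by limma). The groups were far apart, and control replicate 1 was the highest array. ZNF783, also of the KRAB class, was at 8.11, 7.97 and 8.05 in OCRL siRNA cells, against 8.33, 8.29 and 8.33 in control siRNA cells. It fell by 0.27 (adjusted p = 0.0091), and its second probe set fell by 0.30 (adjusted p = 0.00282).

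The remaining falls were between -0.35 and -0.14. ZNF512B was at 8.31, 8.25 and 8.34 in OCRL siRNA cells, against 8.79, 8.59 and 8.57 in control siRNA cells, and ZNF22 at 10.53, 10.51 and 10.49 in OCRL siRNA cells, against 10.72, 10.75 and 10.71 in control siRNA cells. ZNF264, ZNF783, ZNF512B and ZNF22 passed the test with each array left out in turn. ZNF160, ZNF518A, ZNF532, ZNF576, ZNF764 and ZNF281, a GC-rich-element binding factor, had adjusted p between 0.0195 and 0.0453 by limma. The call of ZNF281 was lost whichever array was left out. Those of ZNF160, ZNF518A and ZNF764 were lost without 5 of the 6 arrays, and those of ZNF532 and ZNF576 without 4. ZNF764 also lost its call with trend and robust settings. ZNF576 also had a second probe set with a difference of 0.26 (adjusted p = 0.0624), opposite in sign to the -0.19 of its brighter one.

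**Figure D3:**
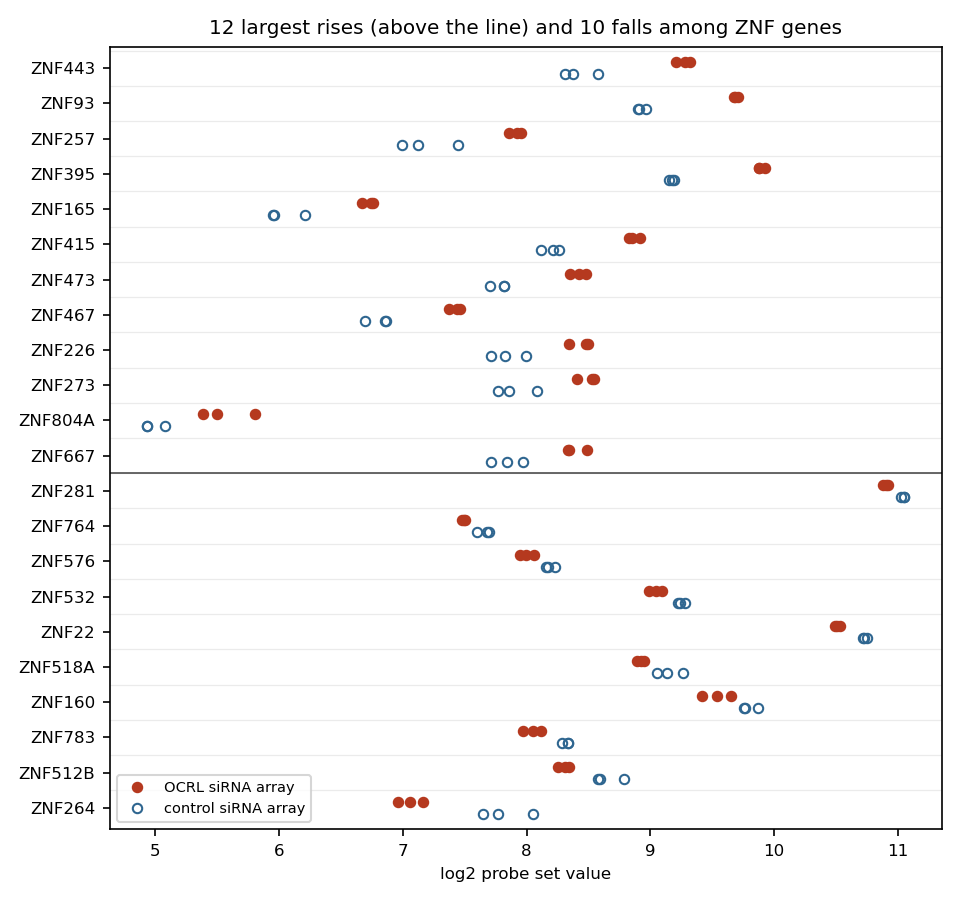
Log2 probe set value (horizontal axis) on each array for the 12 largest rises (above the line) and the 10 falls (below it) among called ZNF genes; filled points are OCRL siRNA arrays and open points control siRNA arrays, 3 each. The genes were drawn because they were called, so the lack of overlap between groups follows from that choice. Among the rises ZNF93, ZNF395 and ZNF443 have the widest gaps, and among the falls ZNF264.

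Promoter sequences from RefSeq (GRCh38.p14) were matched for 196 of the 235 genes, as the 250 bases before the gene's first listed start and the 50 after it. Printed below, 5′ to 3′ along the gene, are those of ZNF93 and ZNF257, which rose and lie in the same stretch of chromosome 19, of ZNF226, which rose in another, and of ZNF264, which fell. Capitals mark CCGGAAG, the core bound by ETS factors, which stands here on the other strand. The windows are chr19:19900696-19900995 (plus strand) for ZNF93, chr19:22052234-22052533 (plus strand) for ZNF257, chr19:44164850-44165149 (plus strand) for ZNF226 and chr19:57191250-57191549 (plus strand) for ZNF264.
ZNF93: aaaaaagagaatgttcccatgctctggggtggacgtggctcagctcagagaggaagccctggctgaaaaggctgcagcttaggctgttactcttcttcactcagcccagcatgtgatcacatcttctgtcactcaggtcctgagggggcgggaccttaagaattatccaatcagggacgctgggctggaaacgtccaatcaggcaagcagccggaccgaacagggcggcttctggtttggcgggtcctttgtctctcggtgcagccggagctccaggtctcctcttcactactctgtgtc
ZNF257: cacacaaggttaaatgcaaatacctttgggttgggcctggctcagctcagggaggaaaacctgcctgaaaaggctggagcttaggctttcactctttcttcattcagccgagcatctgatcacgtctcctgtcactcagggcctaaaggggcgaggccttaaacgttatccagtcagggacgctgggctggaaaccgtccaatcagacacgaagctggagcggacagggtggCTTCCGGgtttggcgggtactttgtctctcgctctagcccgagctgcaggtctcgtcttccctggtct
ZNF226: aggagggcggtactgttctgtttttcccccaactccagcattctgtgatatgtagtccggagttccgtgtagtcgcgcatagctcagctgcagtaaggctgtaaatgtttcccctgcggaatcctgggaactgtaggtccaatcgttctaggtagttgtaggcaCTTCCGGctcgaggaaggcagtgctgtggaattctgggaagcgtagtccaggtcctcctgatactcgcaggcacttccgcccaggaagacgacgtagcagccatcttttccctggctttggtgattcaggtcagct
ZNF264: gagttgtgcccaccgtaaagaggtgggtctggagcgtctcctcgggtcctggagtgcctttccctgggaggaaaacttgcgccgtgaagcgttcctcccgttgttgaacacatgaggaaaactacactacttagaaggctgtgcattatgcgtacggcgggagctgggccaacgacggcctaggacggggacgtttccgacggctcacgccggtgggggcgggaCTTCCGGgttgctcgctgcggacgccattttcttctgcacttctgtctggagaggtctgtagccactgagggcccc

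The windows of ZNF93 and ZNF257 were 79.3% identical in a global alignment. The other 27 pairs among 8 ZNF genes of large change (these 4 with ZNF443, ZNF415, ZNF467 and ZNF783) were 43.2% to 52.6% identical. ZNF257 has the CCGGAAG core where ZNF93 has none, and both rose, while ZNF264 has it and fell. Searched on both strands, CCGGAAG was in 40.3% of the 196 ZNF promoters, beside 15.2% of the 9562 promoters of measured genes and 10.7% of all 27305 in the table. It was in 18 of 48 promoters of ZNF genes that rose, 3 of 9 of those that fell and 58 of 139 of those not called, that is 37.5%, 33.3% and 41.7%. The share of ZNF promoters with the core was thus above that of all measured genes, and it was no higher among genes that rose than among those not called.

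CCAAT, the core bound by NF-Y, was in 54.2% of the promoters of ZNF genes that rose, in 1 of the 9 of those that fell and in 45.3% of those not called, beside 37.3% of all measured genes. It was in 55.1% of promoters of ZNF genes with a KRAB box. TATAAA was in 2.55% of ZNF promoters and 8.30% of promoters of measured genes, and GGGCGG, the core bound by SP factors, in 60.7% and 63.1%. GCATGCGC, part of the NRF1 motif, was in 4 of 48 promoters of ZNF genes that rose (8.33%) and 9 of 139 of those not called (6.47%), beside 4.44% of measured genes. TGACGTCA, the CREB core, was in 4 of the 48 that rose (8.33%) and 5 of the 139 not called (3.60%), beside 3.06%. These counts are small, and the differences were not tested. The E2F-type strings TTTGGCGC and TTTCCCGC were in 1 and 2 of the 196. No string searched contains another, and a match describes letters, not a bound site.

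Most of the rises lay on chromosome 19, where the family is densest. This chromosome holds 103 of the 235 measured ZNF genes, of which 34 rose and 3 fell (33.0% and 2.91%), with a median difference of 0.14. The 132 ZNF genes on other chromosomes had 26 higher and 7 lower (median 0.06). The 707 other genes of chromosome 19 had 12.6% higher and 5.09% lower. Within the KRAB class, 30 of 84 genes on chromosome 19 rose and 12 of 51 elsewhere. The difference between positions was not tested.

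Neighbouring ZNF genes were then followed as runs, each a chain of ZNF genes with at most 2 other protein-coding genes between them and at least 4 measured members, ordered by RefSeq. There were 10 runs with 94 genes, of which 35 rose and 3 fell (median 0.16), that is 37.2% and 3.19%. Among the 141 ZNF genes outside them 25 rose and 7 fell (median 0.06), that is 17.7% and 4.96%, beside 15.5% and 10.5% of all genes. The difference between genes inside and outside runs was not tested. In the run from ZNF45 to ZNF180 on chromosome 19, all 14 measured genes were above 0, and 9 rose (ZNF45, ZNF155, ZNF230, ZNF222, ZNF225, ZNF226, ZNF227, ZNF235 and ZNF180), with a median of 0.32. ZNF226 was at 8.49, 8.34 and 8.48 in OCRL siRNA cells, against 7.995, 7.71 and 7.83 in control siRNA cells, and ZNF180 at 8.64, 8.75 and 8.59 in OCRL siRNA cells, against 8.33, 8.12 and 8.27 in control siRNA cells. Both were separate between groups, whereas ZNF224, known as a repressor of aldolase A, was at 6.30, 6.16 and 6.05 in OCRL siRNA cells and 6.203, 6.06 and 5.90 in control siRNA cells, and overlapped. ZNF180, ZNF226, ZNF227, ZNF230 and ZNF235 passed with each array left out in turn, and the calls of ZNF45, ZNF155, ZNF222 and ZNF225 were lost without at least 1 array.

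In the run from ZNF14 to ZNF254, 7 of 14 genes rose and limma called 0 lower, with 0 lower at an unadjusted p under 0.05 (median 0.25). The risers were ZNF14, ZNF253, ZNF93, ZNF682, ZNF85, ZNF43 and ZNF257, and only ZNF14 lost its call in any fit with an array left out. ZNF91, a member of this run that is known to silence SVA retrotransposons, was at 9.42, 9.31 and 9.30 in OCRL siRNA cells and 9.41, 9.23 and 9.19 in control siRNA cells. Its groups overlapped and it was not called (difference 0.07, adjusted p = 0.581).

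The run from ZNF26 to ZNF268 is the only one on chromosome 12. ZNF26, ZNF84, ZNF140 and ZNF10 rose there by 0.26, 0.45, 0.31 and 0.37, and the fifth measured gene, ZNF268, was not called. ZNF84 was at 10.22, 10.26 and 10.31 in OCRL siRNA cells, against 9.85, 9.78 and 9.80 in control siRNA cells (adjusted p = 8.02e-04, limma). ZNF10, the protein from which the widely used KRAB repressor domain was taken, was at 6.46, 6.56 and 6.61 in OCRL siRNA cells, against 6.23, 6.22 and 6.06 in control siRNA cells (adjusted p = 0.00786). Both were above all control arrays. The call of ZNF26 was lost without 4 of the 6 arrays.

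The run from ZNF440 to ZNF443 holds the gene of the largest rise. All 5 of its measured genes were above 0, with the highest median of the 10 runs (0.34), and 2 rose, ZNF44 and ZNF443. ZNF44 was at 9.36, 9.28 and 9.36 in OCRL siRNA cells, against 9.11, 8.92 and 8.95 in control siRNA cells (adjusted p = 0.00909, limma), by an _x_at probe set.

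The other 6 runs had smaller shares of rises or none. From ZNF264 to ZNF8, the longest, 8 of 23 genes rose and only its first measured gene, ZNF264, fell. The risers were ZNF304, ZNF134, ZNF211, ZNF551, ZNF586, ZNF274, ZNF544 and ZNF8, by 0.20 to 0.40. The calls of ZNF211, ZNF586, ZNF274 and ZNF8 held with each array left out in turn, while those of ZNF304, ZNF134, ZNF544 and ZNF551 were lost without 3, 4, 4 and 5 of the 6 arrays. ZNF544 and ZNF551 also lost their calls with median centring, and ZNF544 with a replicate block. From ZNF613 to ZNF331, 3 of 15 rose (ZNF614, ZNF415 and ZNF665) and ZNF160 fell, and the call of ZNF665 was lost without 4 of the 6 arrays. The dimmer probe set of ZNF614 differed by -0.18 (adjusted p = 0.109, limma), against 0.27 for its brighter one. The call of ZNF614 was lost with the mean of its probe sets. From ZNF146 to ZNF573, limma called 0 of 5 genes, with 0 at an unadjusted p under 0.05, and the differences were between -0.12 and 0.07. From ZNF324B to ZNF446 it called 0 of 4, with 1 at an unadjusted p under 0.05. In the run from ZNF282 to ZNF862 on chromosome 7, ZNF467 rose and ZNF783 fell. From ZNF34 to ZNF16, 1 of 4 genes rose, ZNF16 (difference 0.21, adjusted p = 0.0437), and its call was lost whichever array was left out.

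**Figure D4:**
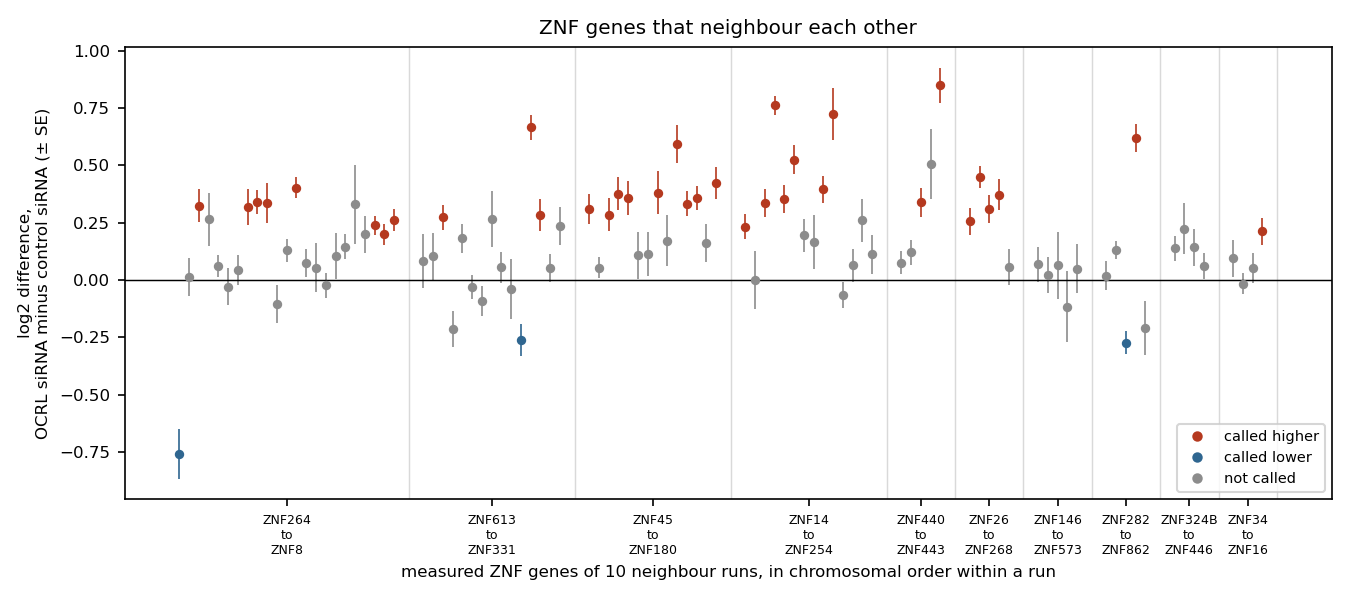
Log2 difference, OCRL siRNA minus control siRNA, with its moderated SE (vertical axis), for the 94 measured ZNF genes of 10 neighbour runs in chromosomal order within each run (horizontal axis, first and last gene named). All 14 points of the ZNF45 to ZNF180 run lie above 0, and the lowest point, ZNF264, starts the longest run.

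Related ZNF genes have similar transcripts, so a probe set may read more than its own gene. Probe sets whose name ends in _x_at hold probes that also match other transcripts, and 32 ZNF genes were read by such a probe set, with 10 higher and 1 lower. The share that rose was 31.25%, beside 11.5% of all genes read by an _x_at probe set, the widest gap among the 3 kinds. The 57 read by an _s_at probe set had 17 higher and 3 lower, at 29.8% higher beside 18.3% of all such genes. The 146 read by a plain _at probe set had 33 higher and 6 lower, at 22.6% and 4.11%, beside 14.4% and 10.7% of all genes read by a plain probe set. In the run from ZNF45 to ZNF180 only 4 of 14 genes were read by a plain probe set, and 3 of those rose. In the run from ZNF14 to ZNF254 it was 6 of 14, and 2 of those rose. How far shared sequence adds to the rises of these runs was not tested.

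Other probe sets of the same gene were checked where they existed. The 13 risers with more than 1 probe set had 15 others, of which 5 rose, 0 fell and 12 were above 0, and 7 of the 15 were below the lower quartile of brightness. The risers with a second probe set called were ZNF133, ZNF200, ZNF45, ZNF473 and ZNF93. The 6 genes called lower with another probe set had 6 others, of which 1 fell (ZNF783), 0 rose and 2 were above 0, those of ZNF576 and ZNF518A. The second probe set of ZNF518A differed by 0.15 (adjusted p = 0.104), against -0.23 for its brighter one. Among the 37 genes not called, 48 other probe sets gave 2 rises, of ZNF224 and ZNF419, and 1 fall, of ZNF79. No gene had probe sets called in opposite directions. A further 15 probe sets annotated to several genes, a ZNF gene among them, were not used, and 2 of these rose.

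**Figure D5:**
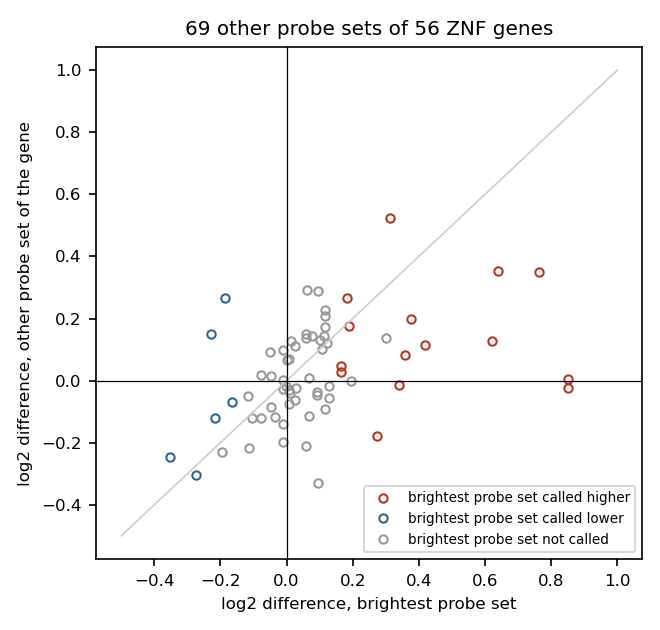
Log2 difference of each of the 69 other probe sets (vertical axis) against that of the brightest probe set of the same gene (horizontal axis), for 56 ZNF genes, coloured by the call of the brightest. The diagonal marks equal differences; the 2 points at 0.85 on the horizontal axis and near 0 on the vertical one are the dimmer probe sets of ZNF443.

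Several ZNF genes with well known roles were followed by name. ZNF274, which binds the coding ends of ZNF genes themselves and recruits silencing there, was at 10.48, 10.41 and 10.45 in OCRL siRNA cells, against 10.23, 10.18 and 10.20 in control siRNA cells. It rose by 0.24 (SE 0.042, adjusted p = 0.00759, limma), and the groups did not overlap. ZNF330, a nucleolar protein, was at 10.41, 10.41 and 10.41 in OCRL siRNA cells, against 10.20, 10.25 and 10.22 in control siRNA cells, and was called higher (difference 0.19, adjusted p = 0.0161). Its call was lost without 4 of the 6 arrays and with median centring.

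Of the 15 genes followed by name, 10 were not called. ZNF143, an activator of small nuclear RNA genes and many promoters, was at 9.61, 9.50 and 9.55 in OCRL siRNA cells and 9.43, 9.48 and 9.45 in control siRNA cells (difference 0.10, adjusted p = 0.171, limma). Its paralogue ZNF76 differed by 0.14 (adjusted p = 0.24). ZNF217, an oncogene amplified in breast cancer, was at 11.77, 11.60 and 11.67 in OCRL siRNA cells and 11.83, 11.49 and 11.502 in control siRNA cells, with overlapping groups. ZNF148, a GC-rich-element binding factor, ZNF24, a SCAN protein known to repress VEGF, and ZNF350, a partner of BRCA1, had differences of -0.03, 0.07 and 0.10, and ZNF350 was called higher without control replicate 1. ZNF423, a factor of BMP signalling linked to nephronophthisis, was in the lowest band, at 3.96, 3.75 and 3.94 in OCRL siRNA cells and 3.94, 3.78 and 4.14 in control siRNA cells. ZNF365 had a difference of -0.19 (adjusted p = 0.111) and was called lower with median centring.

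The 3 brightest ZNF probe sets were not called. ZNF706 was at 12.43, 12.38 and 12.44 in OCRL siRNA cells, against 12.26, 12.29 and 12.29 in control siRNA cells (difference 0.13, adjusted p = 0.0584, limma). ZNF207, which loads the checkpoint protein BUB3 at kinetochores, was at 11.99, 12.04 and 12.02 in OCRL siRNA cells, against 12.11, 12.16 and 12.14 in control siRNA cells (difference -0.12, adjusted p = 0.0879). In both genes the groups did not overlap, and both passed the test with array weights, with trend and robust settings, and when dim probe sets were dropped. ZNF146, a protein made almost wholly of zinc fingers, had overlapping groups (difference 0.07, adjusted p = 0.58).

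Genes of the co-repressor complex that KRAB proteins recruit were examined beside them. Of 31 listed genes of KRAB co-repression, DNA and histone methylation and the HUSH complex, 24 were measured. Of these 10 rose and 1 fell, beside 15.5% and 10.5% of all genes, with a median difference of 0.08. Most of the 24 were in the third or top band of brightness. In those bands 25.6% and 21.7% of all genes rose, and 14.8% and 15.3% fell. DNMT3B, a de novo DNA methyltransferase, was at 10.13, 10.13 and 10.09 in OCRL siRNA cells, against 9.57, 9.44 and 9.58 in control siRNA cells (difference 0.59, adjusted p = 4.60e-04, limma). The histone methyltransferases EHMT2 and SUV39H1 rose by 0.45 and 0.31, the chromatin assembly subunits CHAF1A and CHAF1B by 0.44 and 0.23, and RESF1, a SETDB1 partner, by 0.43. CBX5, the heterochromatin protein HP1 alpha, rose by 0.33, and HDAC1, ATF7IP and DNMT1 by 0.28, 0.24 and 0.16.

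TRIM28, the co-repressor that binds the KRAB box, was at 9.86, 9.98 and 10.02 in OCRL siRNA cells, against 10.16, 10.12 and 10.15 in control siRNA cells. It was called lower by a small margin (difference -0.19, SE 0.053, adjusted p = 0.0426, limma), and the call was lost whichever array was left out. SETDB1, the histone methyltransferase it recruits, was at 8.03, 8.05 and 8.05 in OCRL siRNA cells and 8.12, 7.9995 and 7.95 in control siRNA cells, with overlapping groups (difference 0.02, adjusted p = 0.853). The HUSH subunits MPHOSPH8 and TASOR differed by 0.07 and -0.15 and were not called. The genes of this list that rose therefore did not include TRIM28 or SETDB1, and several of them, such as the CHAF1 subunits and DNMT1, also serve DNA replication.

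Other zinc finger families, chosen by symbol, were small, and their shares of rises lay on both sides of the 25.5% of ZNF genes and the 15.5% of all genes. Of 25 ZBTB genes, which carry a BTB box in place of KRAB, 2 rose and 2 fell (8% each), with a median of -0.02. Of 15 ZSCAN and ZKSCAN genes, ZSCAN18 rose by 0.55 and ZSCAN31 fell by 0.92 on the log2 scale, a larger fall than that of any ZNF gene, and 13 were not called, so that 6.67% rose. Of 8 ZFP genes 3 rose (37.5%), among them ZFP69B by 0.72, and ZFP36, an RNA-binding regulator of unstable mRNAs, fell by 0.33. Of 6 ZC3H genes, which bind RNA rather than DNA, 1 rose and 2 fell. Of 16 genes with a KLF symbol, noncoding neighbours included, 5 rose (31.25%) and limma called 0 lower, with 2 lower at an unadjusted p under 0.05. KLF2 and KLF4, factors induced by many stimuli, rose by 1.16 and 1.00, more than any ZNF gene. Whether these families differ from the ZNF genes was not tested.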

How the data were processed

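RNA of 3 OCRL siRNA and 3 control siRNA cultures of HK2 cells was hybridised as biotin-labelled cRNA, 1 Affymetrix GeneChip per culture, per the labels' protocols. The deposited values are log2 intensities of probe sets, which the authors had normalised across arrays. The submitters' processing notes name affy and RMA, whose versions are not given in the sources used here. RMA brings the arrays to a common distribution, which removes a change shared by most genes, and compresses differences of dim probe sets.

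Of 22277 probe sets, 62 control probe sets were dropped and 22215 tested. GEO's platform annotation gave a single symbol to 19064, several to 1043 and none to 2108, and all 235 ZNF symbols matched RefSeq with 0 changed. The groups were fitted by limma (version 3.58.1, under R 4.3.3) with lmFit and eBayes and no covariate, and two-sided p-values were adjusted by the Benjamini-Hochberg method across every probe set tested, at a threshold of 0.05. Differences are OCRL siRNA minus control siRNA, and SE is the moderated standard error. Precision is limited by how few arrays there are. The fit was tested on simulated data with 200 changed probe sets among 22215, fewer than the genes called here. It recovered 32.8% of 1.25-fold, 68% of 1.5-fold and 96% of 2-fold changes, and 4.11% of its calls were false. A gene that was not called may thus still have changed by a small amount.

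The members and gene lists were chosen with earlier results of these data known. Named ZNF genes are the 12 largest rises and up to 12 largest falls (10 were called) with a call and no overlap between groups, up to 3 called genes per class with the smallest p, the 3 brightest, 15 fixed by name, and runs of neighbours with at least 3 members called one way. Other genes were named after their values were seen. A KRAB or SCAN class was to be read from RefSeq proteins, which were not used here. Classes come instead from general knowledge of the proteins, with 16 genes left unassigned. Gene order and chromosome come from RefSeq (GRCh38.p14). Promoters were aligned with scores of 1 for a match, -1 for a mismatch and -2 for a gap. The alternatives were a replicate block, omission of each array, quantile normalisation, median centring, array weights, trend with robust fitting, 2 filters on dim probe sets (the lower quartile and the median), omission of _s_at and _x_at probe sets, a 1.5-fold minimum, and the mean or the most variable probe set of a gene. Figures were drawn with matplotlib 3.10.9.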

Additional observations from a re-analysis of the deposited data

How the results depend on the processing

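Under every alternative run, more ZNF genes were called higher than lower, and no gene called in the main comparison was called in the opposite direction. The rises of ZNF genes numbered 60 as reported, and 43 to 70 with an array left out in turn, against 10 falls as reported and 5 to 7 with an array left out. In the fits with an array left out, 18.3% to 29.8% of ZNF genes rose, beside 11.1% to 14.6% of all genes. The shares that fell were 2.13% to 2.98%, beside 7.08% to 10.4%. The falls were fewer and more dependent on single arrays, and the cause was not tested. With an array left out, the median ZNF difference was 0.0780 to 0.125, the falls of KRAB genes numbered 2 or 3 and those of SCAN and neither-box genes 2 to 4. By level band, 3 to 7 rose in the lowest band, 11 to 23 in the second and 1 or 2 in the top, and 1 or 2 fell in the second band, 2 to 4 in the third and 1 in the top; 0 of the co-repressor list fell.

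Whether the replicate numbers pair the arrays could not be settled with so few arrays. The correlations of same-numbered deviations were 0.142, 0.123 and -0.00948, and those of differently numbered ones lay between -0.176 and 0.0961. The block is therefore given only as an alternative. With a replicate block, 57 ZNF genes rose and 7 fell, beside 13.4% and 9.47% of all genes. Of these falls 3 were SCAN or neither-box genes, 1 was in the second and 1 in the top band, and 0 of the co-repressor list fell. With array weights the median was 0.10, with 8 falls among SCAN and neither-box genes and 4 in the top band. Leaving out probe sets below the lower quartile gave a median of 0.11. Leaving out those below the median gave 0.11, and of the 134 ZNF genes then tested 55 rose and 18 fell, or 41.0% and 13.4%, beside 31.2% and 21.0% of all genes; 10 of the falls were SCAN or neither-box genes and 5 were in the top band. Median centring gave a median of 0.0478, with 8 falls of SCAN and neither-box genes and, in the top band, 1 rise and 4 falls. Quantile normalisation gave a median of 0.0754. Trend and robust settings gave 1 fall in the second band and 5 in the top.

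Without _s_at and _x_at probe sets, 158 ZNF genes were tested, and 33 rose and 5 fell. These are 20.9% and 3.16%, beside 12.4% and 9.73% of all genes. Rises and falls were 24 and 2 for KRAB genes, 6 and 3 for SCAN and neither-box genes, and 6 and 0 for the co-repressor list. In the second, the third and the top band they were 6 and 1, 22 and 3, and 1 and 1. With a 1.5-fold minimum these were 10 and 1 for ZNF genes, 6 and 1 for KRAB genes, 3 and 0 for SCAN and neither-box genes and 1 and 0 for the co-repressor list, and by band 0 rises in the lowest band, 3 rises and 1 fall in the second, 7 and 0 in the third, and 0 and 0 in the top. With the most variable probe set of a gene, 2 of the co-repressor list fell, 1 ZNF gene fell in the second band and 1 rose in the top. ZNF576 changed sign with the mean of its probe sets (0.0396) and with the most variable one (0.26), because its probe sets differ. Signal over background was not measured in the values used here.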
